A study of Mus musculus with 11 samples.

Results

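The Hox genes are transcription factors encoded in 4 clusters, Hoxa, Hoxb, Hoxc and Hoxd. The 32 genes described here are all rows of the count table whose Ensembl identifier maps to a protein-coding symbol made of Hox, a cluster letter from a to d and a paralogue number, out of 23507 gene rows in all. The annotation lists 39 such genes, and Hoxb1, Hoxb13, Hoxc12, Hoxc13, Hoxd1, Hoxd12 and Hoxd13 were not analysed here. The members comprise 11 genes of Hoxa (chromosome 6), 8 of Hoxb (chromosome 11), 7 of Hoxc (chromosome 15) and 6 of Hoxd (chromosome 2). By paralogue number, 21 belong to groups 1 to 8 and 11 to groups 9 to 13. The rule used no measured value.

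Genes of the same paralogue number in different clusters derive from one ancestral gene and have similar homeodomains. In the embryo the clusters are read in order of position, so that low numbers are used from the head end onwards and high numbers towards the tail end, the limbs and the genital tract. Adult connective tissue cells keep much of this positional code, and fat depots are known to differ in it. Hox proteins bind DNA together with TALE cofactors (the Pbx, Meis and Pknox families), and the clusters are held silent by Polycomb and kept active by Trithorax proteins.

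The cells came from perigonadal white adipose tissue (pgWAT), a gonadal fat depot, and were taken from the stromal vascular fraction, in which the adipocytes have been removed. All mice were adults of the Tg(Pdgfrb-eGFP) strain backcrossed to C57BL6/J, a reporter in which GFP marks cells with an active Pdgfrb promoter, and no mouse was treated. Male mice 1, 4 and 8 and female mice 2, 3, 5 and 6/7 were compared, where 6/7 is 1 label for 2 animals whose cells share plates, and cells were sorted for PDGFRB, CD31 or DPP4. Each of the 11 plates held 1 sex, so sex and plate cannot be told apart.

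Smart-seq2, which copies whole transcripts and counts reads and not molecules, gave the single-cell libraries, at 149931 to 3548334 reads per cell (median 629323). Of 3261 cells, 2251 were adipose stem cell (ASC)-like, 560 blood endothelial cell (EC)-like, 137 macrophage (MAC)-like, 60 pericyte-like and 41 vascular smooth muscle cell (VSMC)-like, the latter pair being joined as mural-like. Classes were clustered without the Hox genes and named from markers. ASC markers (Pdgfra, Col1a1, Dcn, Lum) summed to between 6764 and 21096 counts per 1000000 reads in genes (CPM) in the ASC-like sums and to between 8.04 and 45.1 CPM in the EC-like sums. Counts of a class were added up within each mouse that had 10 or more of its cells, which gave 7 sums of ASC-like cells, 5 of EC-like cells (mice 2, 5, 6/7, 1 and 8), 2 of MAC-like cells (mice 5 and 1) and 2 of mural-like cells (mice 2 and 1). Xist, read from the inactive X chromosome, was at 110.3 CPM or more in every female ASC-like sum and at 1.45 CPM or less in every male one.

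The largest contrast among the members lay between neighbouring genes of the Hoxa cluster, so the 250 bases before the RefSeq transcription starts of Hoxa7, Hoxa9, Hoxa10 (the first of its 2 listed windows) and Hoxa11 are shown, in the order in which the genes lie (GRCm38.p6, all on the minus strand, 5′ to 3′, CG dinucleotides in capitals). They lie at chr6:52218574-52218823, chr6:52227371-52227620, chr6:52240855-52241104 and chr6:52245811-52246060.
Hoxa7: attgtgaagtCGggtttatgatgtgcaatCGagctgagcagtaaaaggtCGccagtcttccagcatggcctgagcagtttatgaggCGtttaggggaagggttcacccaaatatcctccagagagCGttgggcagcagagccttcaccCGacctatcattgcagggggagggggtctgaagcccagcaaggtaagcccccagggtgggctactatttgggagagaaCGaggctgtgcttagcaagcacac
Hoxa9: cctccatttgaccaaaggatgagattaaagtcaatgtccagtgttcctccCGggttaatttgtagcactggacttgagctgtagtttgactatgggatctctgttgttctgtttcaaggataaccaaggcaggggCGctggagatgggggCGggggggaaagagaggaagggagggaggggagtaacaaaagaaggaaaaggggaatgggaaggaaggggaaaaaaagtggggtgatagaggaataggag
Hoxa10: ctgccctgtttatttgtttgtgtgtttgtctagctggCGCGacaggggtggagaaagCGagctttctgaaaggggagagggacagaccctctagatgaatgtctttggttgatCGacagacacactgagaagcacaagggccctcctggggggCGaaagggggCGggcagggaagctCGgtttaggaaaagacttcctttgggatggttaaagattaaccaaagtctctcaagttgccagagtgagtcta
Hoxa11: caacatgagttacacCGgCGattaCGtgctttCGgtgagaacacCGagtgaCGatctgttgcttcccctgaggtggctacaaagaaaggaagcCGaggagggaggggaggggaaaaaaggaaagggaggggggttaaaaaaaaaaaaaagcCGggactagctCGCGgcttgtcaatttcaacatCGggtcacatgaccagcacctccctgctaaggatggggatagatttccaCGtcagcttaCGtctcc
Hoxa7 was read in both sexes, and the other 3 at far lower levels in male than in female ASC-like cells. The windows hold 7, 3, 7 and 13 CG dinucleotides in this order. The median was 12.5 over the 20 windows of the 18 members with a RefSeq window and 6 over all 32851 windows of this length. A PBX-HOX type motif, TGATTNAT (N is any base, both strands), was in 2 of the Hox windows and in 2.83% of all windows, and in none of the 4 printed. These are descriptions of the letters, and no binding was measured.

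Female ASC-like cells carried a block of Hox genes that was nearly silent in male ASC-like cells. Hoxa9, Hoxa10, Hoxa11, Hoxc10 and Hoxd10, all of groups 9 to 11, were lower in males, with male minus female log2 differences of -8.38 to -6.15, while Hoxb5, Hoxc5 and Hoxc8 were higher in males, with differences of 1.70 to 2.67. These 8 were the members called among 19 tested (edgeR quasi-likelihood F test over genes with more than 600 reads in at least 2 sums, 3 male against 4 female mice, adjusted p below 0.05 and a fold above 2.6). Over all 11822 genes tested, 2.23% were called. The 5 members lower in males had 15 to 90 reads each over all male sums, so they passed the count minimum only through the female sums. Neither their count nor their direction is therefore support for a difference of the family. The count of members called was 3 without mouse 6/7, 4 without mouse 2 and 5 without mouse 4 or mouse 8, with the male-higher genes lost in each. The division of the members into groups 1 to 8 and 9 to 13 was made by the study on these samples, so the direction of the 2 parts is not independent evidence.

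Hoxa10, a gene of the uterus, the limb and the lumbar skeleton, had the highest mean level per kilobase of any member in female ASC-like cells, 10.7 ± 2.6 CPM per kb (SD, n = 4). It stood at 36.7, 40.1, 22.6 and 40.1 CPM in female mice 2, 3, 5 and 6/7, and at 0.135, 0.0365 and 0 CPM in male mice 1, 4 and 8. No male value came near the lowest female one (log2 difference -8.38 ± 0.92 SE, edgeR adjusted p = 0.00178). Before thinning, 65.2, 49.1, 59.6 and 60.8% of the female ASC-like cells had a read, against 2 of 244, 2 of 363 and 0 of 161 male cells. Within the female cells that had a read, the median level was 46.3, 56.2, 36.7 and 55.3 CPM. In the few male cells with a read it was 12.1 CPM (mouse 1) and 11.6 CPM (mouse 4). With so few male cells, share of cells and level per cell cannot be told apart. In male mouse 1, a single cell held 96.6% of the Hoxa10 reads.

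Its neighbour Hoxa9, known from blood progenitors and the posterior skeleton, was at 14.9, 8.87, 13.99 and 13.4 CPM in the females and at 0.0790, 0.296 and 0 CPM in the males (-6.29 ± 0.90 SE, edgeR adjusted p = 0.00741). Hoxa11, which acts in the forearm, the kidney and the uterus, was at 15.8, 23.0, 13.4 and 20.9 CPM against 0, 0.345 and 0 CPM (-7.02 ± 1.19 SE, edgeR adjusted p = 0.0168). The female and male ranges of both genes lay far apart. Of the exon bases of Hoxa11, 800 are shared with the antisense transcript Hoxa11os, which was called as well (-8.10, edgeR adjusted p = 0.00445). No source states that strand entered the counting, so the reads of this overlap cannot be assigned. Hoxa11 lost its call at a count minimum of 10 reads (edgeR adjusted p = 0.0504), with no count minimum and without mouse 6/7.

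Hoxc and Hoxd each had a called member of group 10. Hoxc10, a gene of hindlimb-level identity that is also studied in white fat, was at 14.7, 9.35, 5.53 and 11.8 CPM in females and at 0.0232, 0.259 and 0.0436 CPM in males (-6.15 ± 0.71 SE, edgeR adjusted p = 0.0022). Hoxd10, which patterns lumbar motor neurons, was at 2.73, 2.25, 8.0 and 3.85 CPM against 0.0232, 0.0405 and 0 CPM (-7.09 ± 1.03 SE, edgeR adjusted p = 0.0078). Every female value of either gene exceeded every male value, and mouse 5 was the highest female for Hoxd10 and the lowest for Hoxc10.

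The members with the highest numbers had too few reads for the main count minimum. Hoxa13, a gene of the digits and the distal genital tract, was at 1.44, 2.80, 0.763 and 0.685 CPM in females and at 0.00929, 0 and 0 CPM in males, with 1469 reads against 2 in all (ratio 434.5, 95% counting interval 120 to 3591). Hoxc11 was at 1.41, 2.25, 0.910 and 1.55 CPM against 0.00929, 0.0122 and 0 CPM. Hoxd11, a partner of Hoxa11 in the forearm, was at 2.83, 3.69, 4.74 and 1.93 CPM against 0.0139, 0.0284 and 0.0145 CPM. All 3 were called when genes with at least 10 reads in at least 2 sums were tested. That minimum left all 32 members in the test and called 9 of them, beside 0.777% of 22408 genes. With 2, 5 and 12 reads over the male sums, Hoxa13, Hoxc11 and Hoxd11 passed it only through the female sums. Intervals from counts cover counting error only, since reads are not independent molecules.

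The step did not fall cleanly between groups 8 and 9. Hoxc9, a thoracic-level gene, was at 15.6, 11.4, 6.42 and 11.9 CPM in females and at 4.32, 7.53 and 1.86 CPM in males, and these ranges overlap (-0.72 ± 0.37 SE, edgeR adjusted p = 0.321). Hoxd9 was at 4.66, 3.98, 6.68 and 2.57 CPM in females and 0.697, 1.87 and 0.508 CPM in males, and was not called by edgeR's quasi-likelihood test (-1.69 ± 0.55 SE, edgeR adjusted p = 0.155) although the ranges do not overlap; DESeq2 called it. Hoxb9, which had too few reads to be tested, was at 0.681 to 1.28 CPM in females and 0.307 to 2.31 CPM in males. Summed over members per kilobase of exon, group 9 was at 9.44 CPM per kb in females (8.40 to 11.8, n = 4) and 2.85 in males (1.90 to 4.40, n = 3). Group 10 was at 18.4 (14.2 to 20.6) against 0.0861 (0.0228 to 0.169), and group 11 at 9.53 (7.42 to 12.0) against 0.0583 (0.00345 to 0.163).

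**Figure D1:**
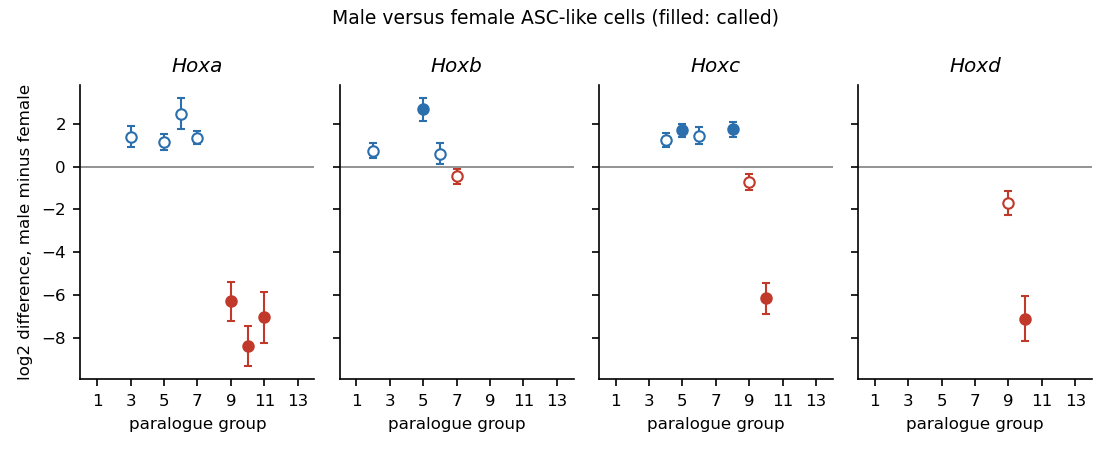
Log2 difference of the 19 tested Hox genes between male and female ASC-like cells (y, male minus female, edgeR estimate ± SE) by paralogue group (x) in each cluster; filled points were called. The 5 called genes below 0 have numbers 9 to 11, and the 3 called genes above 0 have numbers 5 and 8.

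On the anterior side the differences were smaller and ran the other way. Hoxb5, which is known to act in endothelial precursors and the gut, was at 1.94, 1.77, 0.382 and 2.21 CPM in female and at 6.85, 6.21 and 4.23 CPM in male ASC-like cells (2.67 ± 0.54 SE, edgeR adjusted p = 0.0359). Hoxc8, which is known to restrain brown fat genes, was at 5.27, 2.90, 3.58 and 5.61 CPM in females and 8.06, 11.1 and 7.63 CPM in males (1.73 ± 0.34 SE, edgeR adjusted p = 0.0324). Hoxc5 was at 7.39, 8.45, 3.52 and 7.398 CPM in females and at 8.17, 20.3 and 12.8 CPM in males (1.70 ± 0.30 SE, edgeR adjusted p = 0.0217). The lowest male value of Hoxb5 and of Hoxc8 exceeded the highest female value, and the ranges of Hoxc5 overlapped.

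Hoxa7 (1.34 ± 0.30 SE, edgeR adjusted p = 0.0505) and Hoxc4 (1.24 ± 0.31 SE, edgeR adjusted p = 0.0733) were short of the threshold. The remaining tested members of groups 2 to 7 ranged from -0.46 for Hoxb7 to 2.47 for Hoxa6, with none called by edgeR's quasi-likelihood test. Hoxa6 and Hoxc6 were called by both DESeq2 and the likelihood ratio test. The calls of Hoxb5, Hoxc5 and Hoxc8 depended on scaling: with library totals in place of TMM factors, where the median of all genes sits at -0.60 on the log2 scale, none of the 3 was called, and the 5 calls of groups 9 to 11 stayed. Hoxa9, Hoxa10 and Hoxc10 were called in all 16 alternatives, and the male-higher members lost their calls in 6 (Hoxc5), 8 (Hoxc8) and 9 (Hoxb5) of 16. Counted over all 32 members by CPM alone, 9 had every female above every male and 2 the reverse, beside 17.4% of 22408 genes in which the sexes did not overlap in either direction.

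The total of all members differed less than its make-up. Summed Hox reads came to 196, 184, 124 and 186 CPM in female and 94.9, 156 and 71.0 CPM in male ASC-like cells, and to between 122 and 155 CPM in all 7 sums once scaled with TMM factors. Of the summed level per kilobase, groups 9 to 13 made up 53.6, 57.2, 64.9 and 56.4% in the females and 6.01, 7.68 and 6.77% in the males. Hoxa held 43.6 to 47.9% of the female level per kilobase and 29.1 to 41.3% of the male one, and Hoxc 23.6 to 33.0% and 36.2 to 43.6%. Hoxd held 6.72 to 19.8% in females and 2.12 to 2.89% in males. These are shares of a whole and so cannot move independently.

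**Figure D2:**
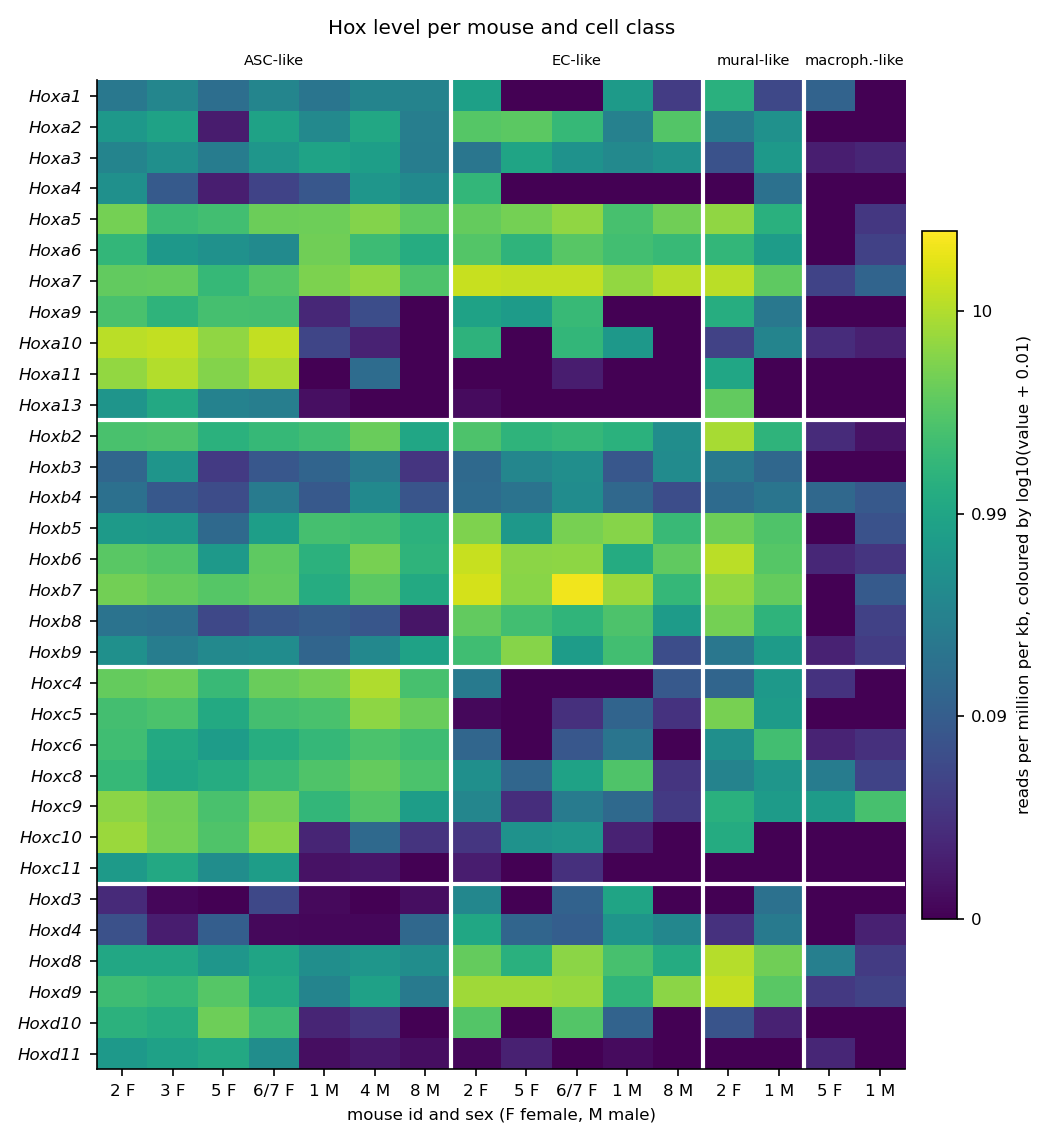
Level of each of the 32 Hox genes (rows, by cluster and number) in each sum of cells of 1 mouse and class (columns), in CPM per kilobase of exon on a log colour scale. Rows Hoxa9 to Hoxa13, Hoxc10, Hoxc11, Hoxd10 and Hoxd11 are bright in the 4 female ASC-like columns and dark in the 3 male ones. The Hoxc rows other than Hoxc8 are mostly dark in EC-like columns, and the macrophage-like columns are dark apart from Hoxc9.

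The shares of the Hoxc cluster did not overlap between ASC-like and EC-like cells, while those of Hoxa did. Those of Hoxb overlapped only through ASC-like mouse 4, which had no EC-like sum. Of the 7 Hoxc genes, 5 were called higher in ASC-like cells, and the whole Hoxc cluster made up 0.4003 to 7.51% of the Hox level per kilobase in EC-like cells, against 23.6 to 43.6% in ASC-like cells. In EC-like cells the Hoxb cluster made up 24.1 to 48.4%, against 12.7 to 25.9% in the 7 ASC-like sums. In the ASC-like sums of the same 5 mice it made up 12.7 to 22.15%. With the mouse as a block (5 mice, 10 sums, genes with at least 10 reads in at least 2 sums), 11 of the 32 members were called, 8 higher in ASC-like and 3 higher in EC-like cells, beside 16.4% of all 22758 genes called. Without mouse 2 the count was 6, losing Hoxa7, Hoxa13, Hoxc11, Hoxd9 and Hoxd11. Hoxa11, Hoxa13, Hoxc4, Hoxc5, Hoxc11 and Hoxd11 passed the count minimum only with the help of ASC-like sums. The count of members higher in ASC-like cells is therefore no support for a difference of the family.

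Hoxc4, Hoxc5 and Hoxc6, genes of the neck and upper trunk in the embryo, were among these. Hoxc4 was at 10.1, 5.06, 10.9, 12.4 and 6.59 CPM in ASC-like cells of mice 2, 5, 6/7, 1 and 8 and at 0.602, 0, 0, 0 and 0.203 CPM in their EC-like cells (7.86 ± 1.64 SE, edgeR adjusted p = 0.0138). Hoxc5 was at or under 0.350 CPM in all 5 EC-like sums and at 3.52 CPM or more in ASC-like cells (7.56 ± 1.06 SE, edgeR adjusted p = 0.00222). Hoxc6 (5.10 ± 1.08 SE, edgeR adjusted p = 0.0144) and Hoxc9 (4.84 ± 0.72 SE, edgeR adjusted p = 0.00297) had EC-like levels up to 0.487 and 0.858 CPM. In each of these 4 genes the ASC-like and EC-like ranges did not overlap. Hoxc8 was the member of the cluster with the highest mean level in EC-like cells, 0.0677 to 8.22 CPM, and was called by DESeq2 and the likelihood ratio test but not by the quasi-likelihood test.

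The other 4 genes called higher in ASC-like cells, Hoxa11, Hoxa13, Hoxc11 and Hoxd11, were the members with the highest numbers. Over the 5 mice Hoxa11 had 14505 reads in ASC-like cells and 1 in EC-like cells (ratio of levels 4182, 95% counting interval 750 to 165200), and Hoxa13 had 1048 reads and 1 (302, 54.1 to 11940). Hoxd11 had 2397 reads and 3 (230, 78.7 to 1118), and lost its call without mouse 2, 5, 6/7 or 8. Hoxc11 had a log2 difference of 6.16 ± 1.07 SE (edgeR adjusted p = 0.00865). The ASC-like reads of these 4 genes came almost only from the female mice. In male mice 1 and 8, Hoxa11 had no read in either class. Hoxa11, Hoxc11 and Hoxd11 together were at 0.0232 and 0.0145 CPM in their ASC-like cells. In their EC-like cells they were at 0.0106 and 0 CPM. Hoxa13 was at 0.00929 and 0 CPM in their ASC-like cells and had no EC-like read. These males thus showed no clear difference. All 4 genes were at 0.0439 CPM or less in every EC-like sum and at 0.345 CPM or less in every male ASC-like sum. The 0.345 CPM was Hoxa11 in mouse 4, without an EC-like sum. The likeness did not extend to all genes that were low in male ASC-like cells. Hoxa9 was at 3.99 to 10.7 CPM in female EC-like cells.

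In the other direction, Hoxb8, a gene of the trunk that also acts in myeloid progenitors, was at 10.1, 6.14, 4.40, 7.43 and 1.90 CPM in EC-like cells and at 0.488, 0.117, 0.190, 0.242 and 0.0145 CPM in the ASC-like cells of the same mice (-5.00 ± 0.68 SE, edgeR adjusted p = 0.00195). Hoxd9 was at 17.7, 17.4, 15.7, 3.55 and 13.9 CPM in EC-like cells (-2.34 ± 0.58 SE, edgeR adjusted p = 0.0281). It lost its call without mouse 1, 2 or 6/7. Hoxa7 was the leading member of EC-like cells per kilobase and stood at 37.3, 35.0, 34.6, 20.0 and 30.6 CPM (-1.55 ± 0.40 SE, edgeR adjusted p = 0.0336). In all 5 mice these 3 genes were higher in EC-like than in ASC-like cells, and the lowest EC-like value of Hoxa7 (20.0 CPM, mouse 1) lay above the ASC-like values of these mice (5.33 to 15.3 CPM). Hoxa7 lost its call without mouse 2, 5, 6/7 or 8, without the mouse block, with cells of mixed markers left out and with classes from single-cell markers.

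Per kilobase, Hoxb7 followed Hoxa7 in EC-like cells with 10.4 ± 7.7 CPM per kb (SD, n = 5) against 10.9 ± 2.4 for Hoxa7. Hoxd9 came next with 6.39 ± 2.74. Within each sex the lowest Hoxa7 value lay above the highest Hoxd9 value (12.04 against 8.29 in females, 6.97 against 6.5 in males). Hoxb7, at 1.84 to 21.4, overlapped both genes, and the order was not tested. In ASC-like cells the leading members of the 4 clusters were Hoxa10, Hoxb7, Hoxc4 and Hoxd9, at 6.10 ± 5.97, 3.07 ± 1.36, 4.54 ± 2.57 and 1.40 ± 1.05 CPM per kb (SD, n = 7). The SD of Hoxa10 is as large as its mean because it joins both sexes.

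**Figure D3:**
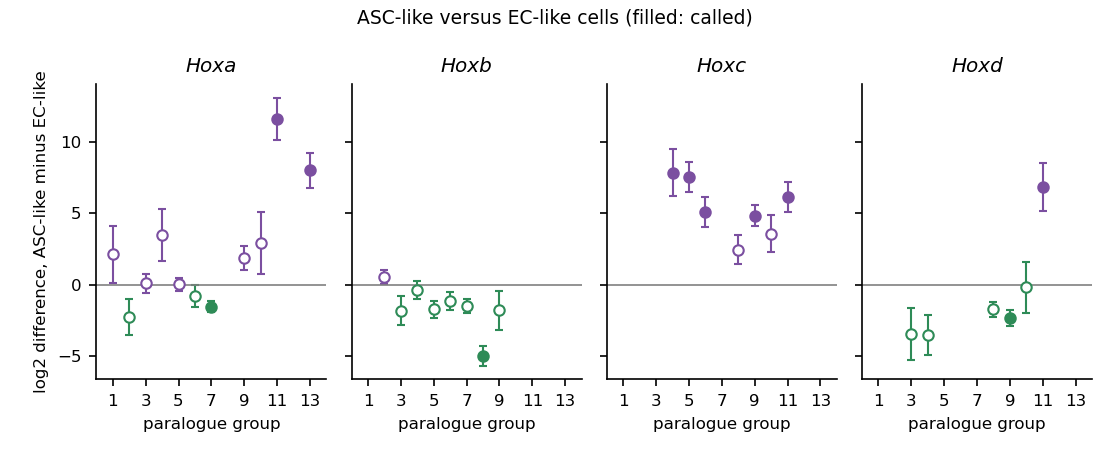
Log2 difference of the 32 Hox genes between ASC-like and EC-like cells of the same 5 mice (y, ASC-like minus EC-like, edgeR estimate ± SE) by paralogue group (x) in each cluster; filled points were called. All 7 Hoxc genes lie above 0, 7 of the 8 Hoxb genes lie below 0, and the points furthest from 0 belong to Hoxa11 and Hoxa13; the estimates of genes with 3 reads or fewer in EC-like cells (Hoxa11, Hoxa13, Hoxd11) depend on the prior count.

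In EC-like cells no member was called between the sexes, with 8 tested and 0 of them at an unadjusted p below 0.05 (edgeR, 3 female against 2 male mice). Over all 8103 genes tested, 0.0494% were called, so the comparison had little reach for any gene. DESeq2 and the likelihood ratio test called 0 members as well. Hoxa9 was at 5.03, 3.99 and 10.7 CPM in the females and had no read in the 177 and 29 male EC-like cells, at least 223-fold lower at a floor of 3 reads over both males. Its female reads lay in few cells, 13 of 170, 2 of 46 and 11 of 138. Hoxa10 was at 5.11, 0 and 5.71 CPM in females and 2.10 and 0 CPM in males, where 1 cell of mouse 1 held 99.5% of the reads. Among the 25 members with at least 10 reads in at least 2 sums, the sexes did not overlap in 7, beside 31.6% of all 18423 such genes, so this count is no result about the members.

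The female EC-like values of these posterior genes were not in the proportions of ASC-like cells. ASC markers in the EC-like sums were at 0.110 to 0.214% of their level in the ASC-like cells of the same mouse. In female mice 2, 5 and 6/7 Hoxa10 was at 13.9, 0 and 14.2% of its ASC-like level, Hoxa9 at 33.8, 28.5 and 80.03%, Hoxd10 at 206.5, 0 and 146% and Hoxa11 at 0, 0 and 0.0944%. Levels thus varied between members and between mice, and in each sum rested on few cells.

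Whether the sexes differed by another amount in ASC-like than in EC-like cells was examined with an interaction term. No member was called (32 tested, edgeR, 0.0% of 22758 genes called), with 2 members at an unadjusted p below 0.05, Hoxa10 (-8.02 ± 3.22 SE) and Hoxd11 (-7.23 ± 2.50 SE), both at an adjusted p of 0.895. DESeq2 called 2 members, Hoxa11 and Hoxd11, which each had at most 3 reads over the 5 EC-like sums. A sex difference that is particular to ASC-like cells was therefore not shown by the main test, for these genes or any other.

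**Figure D4:**
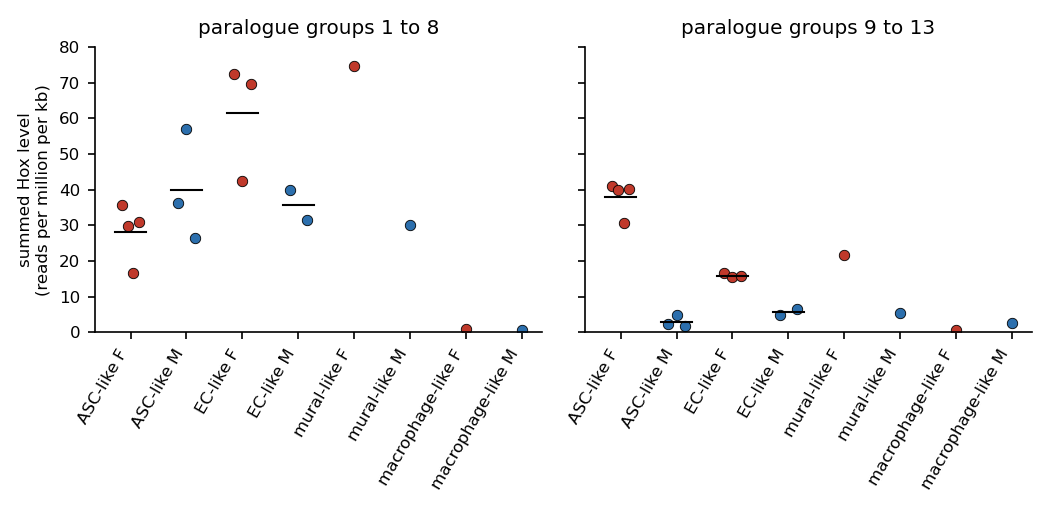
Summed level of the Hox genes of paralogue groups 1 to 8 (left) and 9 to 13 (right) in CPM per kilobase, 1 point for each mouse, by cell class and sex (F female, red; M male, blue), with lines at the mean where there is more than 1 mouse. In groups 9 to 13 the 4 female ASC-like sums lie above all others, and the 2 macrophage-like sums are near 0 on the left.

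Mural-like cells, the pericytes and smooth muscle cells of vessel walls, had a summed Hox level of the order of that in ASC-like and EC-like cells. It was 241 CPM in female mouse 2 (13 cells) and 88.6 CPM in male mouse 1 (82 cells). The leading members of the 4 clusters per kilobase were Hoxd9, Hoxa7, Hoxb6 and Hoxc5. Hoxd9 was at 27.2 and 7.09 CPM, Hoxa7 at 32.3 and 10.4 CPM, Hoxb6 at 21.9 and 6.14 CPM and Hoxc5 at 15.7 and 2.26 CPM. Hoxc11 and Hoxd11 had no read in either sum, where 3 reads would be 0.183 and 0.0594 CPM. Other posterior genes were read in mouse 2: Hoxa13 was at 9.28 CPM, above every ASC-like sum, and Hoxa9 at 7.26 CPM. Both values rest on few cells. Hoxa13 was read in 12.5% of the 16 female pericyte-like cells of all mice, and Hoxa9 in 3 of the 13 cells of mouse 2. In mouse 1 Hoxa13 and Hoxa9 were at 0 and 1.21 CPM. The 13 cells of mouse 2 also carried EC markers at 4783 CPM, beside 3781 CPM of mural markers, and only 1 of them had less than 10% of its marker reads from another class.

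Against the ASC-like cells of the same 2 mice, 0 of 29 members were called, as were 0.0% of all 20527 genes (edgeR, mouse as a block, 1 residual degree of freedom). At an unadjusted p below 0.05 stood Hoxd8 (-3.23 ± 0.81 SE), Hoxd9 (-2.89 ± 0.94 SE) and Hoxb8 (-4.36 ± 1.33 SE), all higher in mural-like cells, and Hoxc4 (3.92 ± 1.24 SE), with adjusted p from 0.248 to 0.388. Hoxb8, Hoxd9 and Hoxc4 had the sign that they had against EC-like cells, but the 2 comparisons share their ASC-like sums. DESeq2 called these 4 members and the likelihood ratio test 3 of them.

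MAC-like cells, the immune cells of the fraction, had almost no Hox reads. All members together came to 4.37 CPM in female mouse 5 (61 cells) and 7.72 CPM in male mouse 1 (76 cells), against 124 and 94.9 CPM in the ASC-like cells of these mice. In both sums 11 members had no read, namely Hoxa2, Hoxa4, Hoxa9, Hoxa11, Hoxa13, Hoxb3, Hoxc5, Hoxc10, Hoxc11, Hoxd3 and Hoxd10, where 3 reads would be 0.0841 and 0.0471 CPM. Most of what remained was 1 gene: Hoxc9 was at 1.74 and 6.12 CPM, and the leading members of the other clusters, Hoxa7, Hoxb4 and Hoxd8, were at 0.784 CPM or less. Hoxc9 had a read in 19 of 61 and 41 of 76 cells, with a median of 4.92 and 6.46 CPM in these. The Hoxc9 level was 27.1% of that in the ASC-like cells of mouse 5 and 141.7% of that in mouse 1. The mice thus went in opposite directions, and Hoxc9 was not called (0.87 ± 0.87 SE, edgeR adjusted p = 0.573).

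Relative to MAC-like cells, 8 of 20 tested members were called, beside 9.55% of 19595 genes called in either direction (edgeR, 2 mice, 1 residual degree of freedom). Members with few MAC-like reads could pass the count minimum only through the ASC-like sums, so neither this count nor its direction, higher in ASC-like cells, is support for a difference of the family. Hoxa7 differed by 5.75 ± 0.76 SE (edgeR adjusted p = 0.0168) and Hoxc6 by 6.47 ± 1.20 SE (edgeR adjusted p = 0.0414). The other 6 had 3 reads or fewer in MAC-like cells. Their ratios of levels were 243 (83.1 to 1180) for Hoxa5, 154 (42.6 to 1277) for Hoxa6, 238 (81.2 to 1153) for Hoxb2 and 530 (146 to 4374) for Hoxc4, and at least 114 for Hoxa9 and at least 234 for Hoxc5 (floor of 3 reads over both sums). Hoxa9 rests on the ASC-like cells of female mouse 5 alone, since male mouse 1 had 0.0790 CPM. The count of calls fell to 3 and 4 under the 2 stricter rules for cell classes.

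Within single cells, Hox genes were read a few at a time. Cells were thinned to 150000 reads in genes so that shares can be compared, and a gene counted as detected at 1 read. ASC-like cells of the females then had a mean of 4.33, 2.70, 4.27 and 4.10 members per cell and those of the males 2.91, 3.57 and 2.85. EC-like cells had 1.48 to 1.89, MAC-like cells 0.328 and 0.618 and mural-like cells 4.15 (mouse 2) and 2.21 (mouse 1). Of all 2249 thinned ASC-like cells, 2.62% had no member and 0.311% had the maximum of 11. In EC-like cells 19.6% of 557 had none, and in MAC-like cells 57.7% of 137.

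The share of cells with any gene of groups 10 to 13 differed between the sexes of ASC-like cells. It was 78.9% (95% exact binomial interval 75.7 to 81.7), 61.9% (56.6 to 67.1), 82.7% (74.0 to 89.4) and 76.6% (71.2 to 81.4) in female mice 2, 3, 5 and 6/7, and 1.64% (0.448 to 4.14), 2.48% (1.14 to 4.65) and 1.24% (0.151 to 4.42) in male mice 1, 4 and 8. The intervals of the male shares overlapped those of MAC-like cells, at 1.64% (0.0415 to 8.80) and 0 of 76 cells, which allows up to 4.74%. All these intervals cover only the sampling of cells within a mouse. EC-like cells were at 11.2, 2.17 and 6.62% in females and at 3.41% and 0 of 29 cells in males. Median depths before thinning ran from 393730.5 to 828255.5 reads in ASC-like cells and were 577335 and 788889.5 in MAC-like cells. Posterior and anterior genes were read in the same cells: a member of groups 10 to 13 together with one of groups 1 to 8 was found in 69.5, 43.3, 73.1 and 64.0% of the female ASC-like cells.

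**Figure D5:**
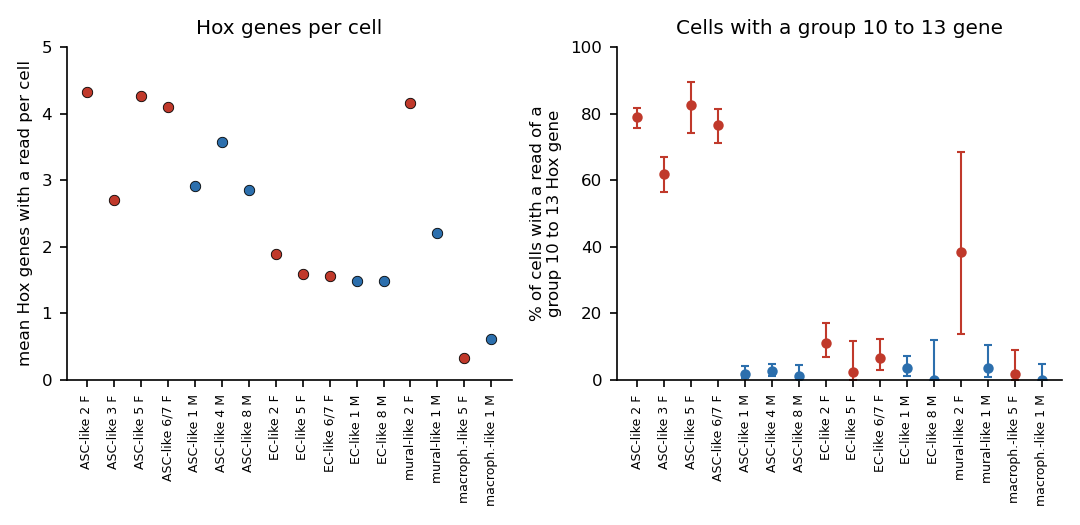
Mean number of Hox genes with a read per cell (left) and percent of cells with a read of any group 10 to 13 gene with 95% exact binomial intervals (right), for each mouse and class after thinning to 150000 reads (females red, males blue). The 4 female ASC-like sums lie at 61.9% or above on the right and the 3 male ones at 2.48% or below; mural-like cells of mouse 2 are 13 cells.

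Pairs of members were found together about as often as the product of their single shares within each mouse gives. In the 1481 thinned female ASC-like cells the most frequent pair was Hoxa10 with Hoxc9, in 290 cells (19.6%), beside a product of 297. Hoxa9 with Hoxa10 was in 204 cells beside 175, Hoxc9 with Hoxc10 in 198 beside 181 (above the product in 4 of 4 mice) and Hoxa10 with Hoxa11 in 191 beside 175 (4 of 4). Over the 299 pairs with a product of at least 5 cells, the median ratio of observed to product was 1.18 for the 18 pairs of neighbouring genes, 1.06 for 55 other pairs within a cluster, 1.06 for 21 pairs of the same number in different clusters and 1.02 for 204 pairs that differ in both, with the pair Hoxc5 and Hoxc10, whose exons overlap, left out. In male ASC-like cells these medians were 1.12, 1.103, 0.985 and 1.04.

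A few neighbours stood above the rest. Hoxd10 and Hoxd11 were read together in 58 female ASC-like cells beside a product of 11.6 (ratio 5.00, above 1 in 4 of 4 mice). Both genes overlap exons of the annotated transcript Gm28309, by 104 and 455 bases, and the part of that overlap in the result was not tested. Hoxa5 and Hoxa6, which share no annotated exon base with another gene, were read together in 49 female cells beside 13.6 (ratio 3.59, 4 of 4 mice) and in 42 male cells beside 15.9 (ratio 2.65, 3 of 3 mice). The lowest ratio was that of Hoxa13 with Hoxb2, in 1 cell beside 6.165. In male ASC-like cells the most frequent pair was Hoxa7 with Hoxc4 (110 of 768 cells, 14.3%, product 103), and in female EC-like cells Hoxa7 with Hoxb7 (17 of 352 cells, 4.83%, product 14.1). These counts are descriptions, since cells of a mouse are not replicates.

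The clusters of ASC-like cells held almost only cells of 1 sex, so the sexes could not be compared within one. Hoxa10 was at 25.3 to 53.1 CPM in the female cells of 5 clusters and at 0 to 0.211 CPM in the male cells of 4. Among the female clusters Hoxd10 ranged from 0.813 to 7.27 CPM. In mouse 2, ASC-like cells had been sorted with and without the surface protein DPP4, which marks progenitors of the interstitium. By CPM, all 32 members were higher in the DPP4-negative sort (368 cells) than in the DPP4-positive one (379 cells), with a median ratio of 1.45 over members with a read in both. So were 73.1% of the 11072 genes with at least 600 reads on both plates, whose median ratio was 1.20. Hoxa10 was at 42.0 CPM and in 56.8% of thinned cells without DPP4 and at 31.6 CPM and in 46.2% with it. It was 1 of 3 members whose intervals for the share of cells did not overlap. The share of all genes with such intervals was not computed, so this count is no result about the members. By share of cells, Hoxb5, Hoxb9, Hoxc4, Hoxc5 and Hoxc9 were higher with DPP4. Each sort is 1 plate of 1 mouse, so there is no replicate of this difference.

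Of the 8 TALE cofactors described here, Meis1, Meis2, Meis3, Pknox2 and Pbx4 were called higher in ASC-like than in EC-like cells, beside 16.4% of all genes called, and Pknox1, Pbx2 and Pbx3 were not. The called genes had log2 differences of 5.93, 6.21, 7.18, 6.66 and 3.86 and edgeR adjusted p from 0.000151 to 0.0232. Meis1, which is known to cooperate with posterior Hox proteins, was at 47.7 to 59.8 CPM in female and 22.6 to 44.9 CPM in male ASC-like cells and at 0 to 2.82 CPM in EC-like cells. Pknox2 did not exceed 0.549 CPM in any sum of the other 3 classes and was at 4.92 CPM or more in every ASC-like sum. Pbx3 was at 0.0653 to 1.33 CPM in ASC-like and 0.0318 to 13.7 CPM in EC-like cells, and these ranges overlap. None of the 8 was called against mural-like cells by edgeR, where Pknox2 was at an unadjusted p below 0.05. Between male and female ASC-like cells 0 of the 6 of them tested were called by edgeR, and Meis2 and Pknox2 were at an unadjusted p below 0.05, both lower in males, with Meis2 nearest to the threshold (-1.07 ± 0.29 SE, edgeR adjusted p = 0.0977). In MAC-like cells Pknox2 was called, 7.6 lower on the log2 scale than in ASC-like cells.

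Non-coding transcripts of the clusters moved with their neighbours in part. Hoxa11os was at 18.5, 10.6, 7.24 and 12.9 CPM in female ASC-like cells, at 0, 0.0973 and 0 CPM in male ones and at 0.0198 CPM or less in all EC-like sums. Of 10 such transcripts tested between ASC-like and EC-like cells, 4 were called, beside 16.4% of all genes. Hoxa11os was higher in ASC-like cells and Haglr, Halr1 and Hoxd3os1 were higher in EC-like cells. Haglr was at 0.00168 CPM in ASC-like cells of mouse 2 and had no read in the other ASC-like sums, and in EC-like cells it had reads in mice 2 and 1 only, at 1.04 and 0.276 CPM. Hoxd3os1, antisense to Hoxd3 and Hoxd4, was at 4.78 to 17.8 CPM in EC-like and 0.697 to 1.86 CPM in ASC-like cells (-2.38 ± 0.58 SE, edgeR adjusted p = 0.0258).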

How the data were processed

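Smart-seq2 libraries of sorted cells had been sequenced with single 50 base reads. Per the labels and the study's methods, reads were demultiplexed with bcl2fastq, aligned with STAR to mm10 with ERCC spike-ins and quantified with Salmon; versions are not given in the sources used here. The authors deposited whole-number counts per gene and cell after filtering cells by reads, genes, mitochondrial and spike-in share and apparent contamination. Spike-in rows held 1.984% of reads and were left out. No source states that strand entered the counting, so genes with overlapping exons cannot be separated.

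Identifiers were matched to GENCODE vM21 (23432 of 23507 rows). Cells were clustered in Seurat 5.3.0 (3000 variable genes, 14 components, resolution 1.1) without 42 Hox genes and transcripts of the loci, and clusters were named from at least 3 detected markers; no doublet caller was run, and cells with over 10% of marker reads from another class were left out as an alternative. Counts were summed per mouse and class (at least 10 cells; 14765132 to 594421842 reads per sum, so that 3 reads were 0.203 CPM or less). Sums were compared with edgeR 4.0.16 (TMM scaling, quasi-likelihood F test, Benjamini-Hochberg adjustment over all genes tested, R 4.3.3); called means adjusted p below 0.05 and fold above 2.6. Sexes were compared for genes with more than 600 reads in at least 2 sums, and classes for genes with at least 10 reads in at least 2 sums with the mouse as a block, both sums of a block coming from 1 mouse label. Mouse 6/7 is 1 label for a pool of animals. DESeq2 1.42.0 and other scalings, minimums, class rules and left-out mice were alternatives. Scripts were tested on simulated data. CPM per kilobase used the length of joined exons. Co-detection was set beside the product of single shares within each mouse, as a description without a test.

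Every member was counted; full values are given for members called in a comparison, for the member with the highest mean level per kilobase in each cluster and class, and for members at 0 in a class, and others by count and range. Of the other lists the called genes are given, and TALE cofactors tested; 1 item of these lists is not reported here. Members and lists were chosen with earlier results of these data known. Each mouse label is 1 replicate.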

Additional observations from a re-analysis of the deposited data

Results flagged for a closer look

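Among the 4 female ASC-like sums, 7 of 41 values had 1 mouse far from the other three; chance flags about 1 in 20 groups. Hoxa4 (0.784 CPM) and Hoxa6 (1.54 CPM) were highest in mouse 2, and Hoxc4 was lowest in mouse 5 (5.06 CPM). In mouse 3, which had the lowest median depth of these (393730.5 reads per cell before thinning), the mean number of Hox genes per thinned cell (2.70), the share of cells with any Hox gene (93.9%), with at least 2 (75.0%) and with one of groups 9 to 13 (79.1%) were lowest. The part of depth in these values was not tested.

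Cells outside the compared classes also held Hox reads. Hoxd9 was at 45.8 CPM in male lymphatic EC-like cells (498 reads, in 12 of all 22 such cells), Hoxb6 at 55.3 CPM in male epithelial-like cells (587 reads, 13 of all 19 cells) and Hoxc9 at 17.2 CPM in female cells left unnamed (1175 reads, 12 of all 171 cells).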

How the results depend on the processing

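No call was reversed under any alternative run. Between the sexes of ASC-like cells, 8 members were called, 10 by DESeq2 (gaining Hoxa6, Hoxc6 and Hoxd9, with no adjusted p for Hoxa11), 10 by the likelihood ratio test (gaining Hoxa6 and Hoxc6), 5 with library totals, and 3 to 7 when a mouse was left out. For ASC-like against EC-like cells, 11 were called, 17 by the likelihood ratio test, 18 by DESeq2, and 6 to 12 when a mouse was left out. Without the replicate block 12 were called, 10 of them shared. For ASC-like against MAC-like cells, 8 were called, 16 by the likelihood ratio test, 15 by DESeq2, 3 with classes from each cell's markers, 4 with cells of mixed markers left out, 12 with no count minimum and 9 without the replicate block. For mural-like cells 0 were called, 3 by the likelihood ratio test and 4 by DESeq2. For the interaction 0 were called, 2 by DESeq2. Leaving out a mouse left 0 calls in EC-like cells between the sexes and in the interaction. Requiring 5 reads, the share of cells with genes of both parts (groups 1 to 8 and 9 to 13) was 36.0% in female and 4.24% in male ASC-like cells and the members per cell 1.84 and 1.05. Without thinning these were 88.2%, 49.6%, 5.34 and 4.88, and at 300000 reads the male values were 36.8% and 3.90. The causes were not tested.

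A minimum of 600 reads left no Hox gene for MAC-like cells. No test was possible for mural-like cells under either stricter class rule, or for mural-like or MAC-like cells with either of their mice left out. The mural-like and MAC-like comparisons had 2 mice and 1 residual degree of freedom each, and the smallest sums held 13 mural-like cells (mouse 2) and 29 EC-like cells (mouse 8).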

Other observations

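Genes beside the clusters and regulators of their chromatin were tested in the same comparisons. Of 10 flanking genes tested, 1 was called between ASC-like and EC-like cells, beside 16.4% of all genes called. It was Snx11 beside Hoxb, a sorting nexin. Snx11 was at 18.7 to 87.4 CPM in EC-like cells and 3.35 to 11.4 CPM in ASC-like cells (-2.65 ± 0.42 SE, edgeR adjusted p = 0.00394). Of 11 Polycomb and Trithorax genes and histone demethylases, 1 was called, Ring1, a Polycomb ubiquitin ligase, higher in ASC-like cells (2.34 ± 0.53 SE, edgeR adjusted p = 0.0196). Neither count exceeds the share over all genes, so neither is a result about its list. Against MAC-like cells Kdm6b, a demethylase of the Polycomb mark, was lower in ASC-like cells (-2.85 ± 0.39 SE, edgeR adjusted p = 0.0184), as was Skap2 beside Hoxa (-2.13 ± 0.38 SE, edgeR adjusted p = 0.0386). Between the sexes of ASC-like cells none of either list was called by edgeR, with Cbx2, Calcoco1 and Mtx2 at an unadjusted p below 0.05.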
